A study of Mus musculus with 13 samples.

Results

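RNA recovered with the RNA-binding protein IMP1 was compared with the total RNA of wild-type cells, so that each transcript's share in the pull-down could be read against its abundance. The comparison uses 5 of the 13 libraries of the series, chosen by their titles: the 3 IMP1 immunoprecipitation (IP) libraries and the 2 wild-type (WT) total RNA libraries. All are labelled as mouse embryonic fibroblasts (MEFs), connective tissue cells in culture, from E12.5 embryos, kept in DMEM with serum. One WT library is the wild type of the IMP1 knockout (KO) and is called replicate 1 here, and the other is the wild type of the IMP2 KO and is called replicate 2. No genotype is labelled for the IP cells, and 1 treatment text, on MEFs deleted for IMP1 or IMP2, stands on every sample. The labels also do not say whether the 3 IP libraries came from separate cultures, so p-values measure the spread between these libraries, which may be technical. Pull-downs with a control immunoglobulin (IgG, 3 libraries) and with IMP2 (3 libraries), from MEFs described in the same way, were used only to ask whether a difference from WT total RNA was particular to the IMP1 antibody. The 2 KO total RNA libraries were not used.

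IMP1, the product of Igf2bp1, belongs to the insulin-like growth factor 2 mRNA-binding proteins, which hold target mRNAs in cytoplasmic ribonucleoprotein granules and act on their localisation, stability and translation. The family is active in the embryo, and its known ligands include the mRNAs of Igf2, beta-actin and CD44 and the non-coding RNA H19. An antibody pull-down also collects RNA that sticks to the beads or the antibody, which a control pull-down with IgG measures, whereas total RNA reports abundance alone.

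The WT libraries held 14756745 and 17225308 counts in genes, and the IMP1 IP libraries between 17704900 and 18938144. Levels are given as scaled CPM, counts relative to library size (CPM), scaled between all 11 libraries by the TMM method, and fold changes come from the edgeR fit of the 5 libraries, so a ratio of levels can differ slightly from a fitted fold. The biological coefficient of variation was 2.11% among the IMP1 IP libraries and 12.3% between the WT libraries, which are labelled as the wild types of different KOs. Across 12936 genes, which are not independent replicates, log2 levels correlated with Pearson's r of 0.9974 to 0.9975 between IMP1 IP libraries, 0.9913 between WT libraries and 0.6662 to 0.6676 between IMP1 IP and WT. Reads that could not be placed at 1 site made up 39.02% to 40.88% of the records in WT and 21.33% to 23.13% in IMP1 IP, so genes with near-identical copies are uncertain.

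The cells behind the total RNA and behind the pull-downs did not match in sex-linked transcripts. Ddx3y, an RNA helicase gene on the Y chromosome, was at 45.7 and 102 scaled CPM in WT and at 0, 0 and 0.0642 in IMP1 IP. The Y-linked translation factor gene Eif2s3y was at 20.6 and 45.2 in WT and at 0, 0 and 0.0642 in IMP1 IP. The Y-linked demethylase genes Kdm5d (9.24 and 15.1 in WT) and Uty (8.09 and 20.6) had no count in any IMP1 IP library, which places them at least 63.49-fold and 74.77-fold lower against a floor of 3 counts per library (0.186 to 0.197 scaled CPM, counting error only). Without WT replicate 2 these bounds were 48.21-fold and 42.17-fold. In the IgG and IMP2 pull-downs none of the 4 genes exceeded 0.146 scaled CPM in any library. Xist, the RNA that coats the inactive X chromosome of female cells, was at 3.95 and 0 in WT, at 122, 128 and 127 in IMP1 IP, at 725 to 763 in IgG IP and at 43.5 to 60 in IMP2 IP. The pull-down and the source of the cells cannot be told apart in the comparison with WT total RNA. Values or tests against the IgG pull-down are given for most lists below. Those list counts are to be read beside all 14076 genes tested against IgG, of which 31.7% were higher and 31.9% lower. Counts against IMP2 IP, given for some lists, are to be read beside 34.1% higher and 37.3% lower of the same genes. List and marker counts against WT are to be read beside 40.5% higher and 47.3% lower of the 14647 genes tested.

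**Figure D1:**
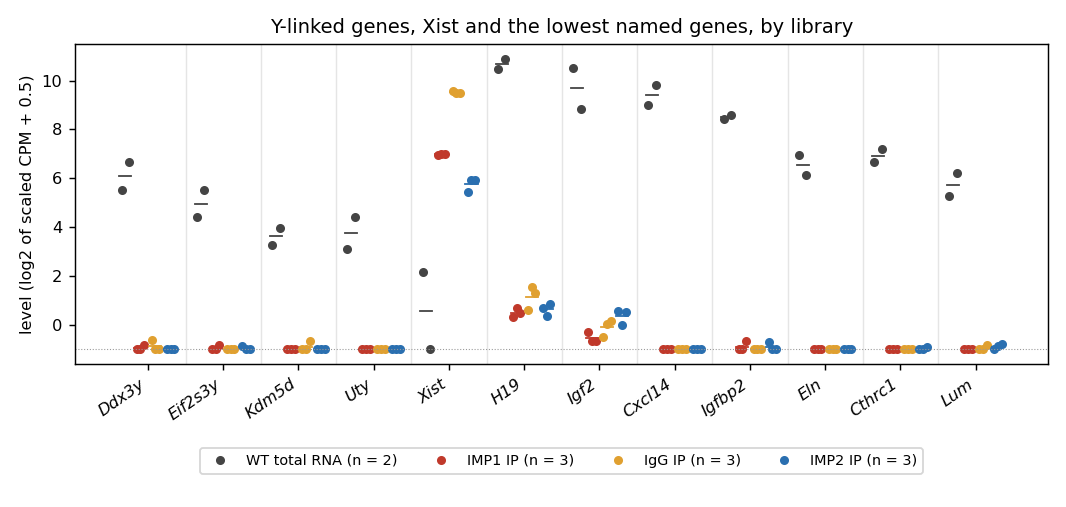
Level of 4 Y-linked genes, Xist and 7 genes that are abundant in WT total RNA, in each of 11 libraries, as log2 of scaled CPM + 0.5; points are libraries, short lines are group means and the dotted line marks 0 counts. The Y-linked genes stand well above the dotted line in both WT libraries and lie on or near it in all 9 pull-down libraries, and H19, Igf2, Cxcl14, Igfbp2, Eln, Cthrc1 and Lum do the same.

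Fibroblast markers were present in both kinds of library. The 15 markers summed to 41843 and 54015 scaled CPM in WT and to between 37989 and 39310 in IMP1 IP, although 11 were lower and 3 higher in IMP1 IP. Fn1, fibronectin, stood at 15100 and 18660 in WT and at 21360, 22000 and 22340 in IMP1 IP (log2 fold change 0.43, SE 0.10, adjusted p = 0.00344; 0.14 with upper quartile and 0.016 with total count scaling, where it was not called). Lum, the matrix proteoglycan lumican, had no count in IMP1 IP. In bulk RNA, fewer cells of a type and less RNA per cell cannot be told apart. In a pull-down, neither can be told apart from a transcript that was not recovered. Macrophage markers summed to 32.1 and 44.3 in WT and 14.8 to 17 in IMP1 IP (2 higher, 10 lower of 13 tested), with Adgre1, Tyrobp, C1qa and C1qb at 0 in all IMP1 IP libraries. These 4 were also at 0 in all IgG and IMP2 libraries, where the sums were 20.3 to 21.7 and 27.2 to 28.3. Skeletal muscle markers summed to 115 and 313 in WT and to 1.12 to 1.48 in IMP1 IP, with all 4 tested lower and Myog, Myf5 and Tnnt1 at 0 (Myf5 also in WT). Their sums were likewise low in IgG IP (1.29 to 1.9) and IMP2 IP (1.2 to 2.27). Only 1 muscle and 4 macrophage markers passed the filter among the 9 pull-downs, so most entered the test against WT through their level in WT. Chondrocyte markers summed to 224 and 366 against 87.1 to 89.4, with 4 of 5 lower and Matn1 and Col9a1 at 0 (also in all IgG and IMP2 libraries). The higher one was Sox9, a transcription factor of cartilage, at 19.5 in both WT libraries and 81.7 to 85.5 in IMP1 IP, nearly the whole sum there (log2 fold change 2.15, adjusted p = 3.73e-09; 113 to 116 in IgG IP). Epithelial markers summed to 12 and 36.4 against 1.41 to 2.1. Of these, Krt5 was at 0 in IMP1 IP, Epcam and Esrp1 at 0 in WT, and Krt14 at 0 in both. Endothelial markers were alike in sum (33.3 and 35 against 33.6 to 35.4) but not gene by gene, with 1 higher and 2 lower of 5 tested and Tie1 and Emcn at 0. The growth factor receptor gene Kdr was higher (3.65 and 1.33 in WT, 16.7 to 19.1 in IMP1 IP; log2 fold change 2.92, 3.78 without WT replicate 1 and 2.33 without WT replicate 2), and Flt1, another receptor, lower (26.1 and 31.3 against 13.6 to 16.6; -0.91). Neural markers were higher in sum (249 and 301 against 494 to 528) although 5 of 7 were lower and 2 higher, and erythroid markers summed to 1.12 or less in all 5 libraries, with the 4 globin genes at 0 in each. The part of these cells in the results was not tested.

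Most genes differed between the pull-down and total RNA. Of 14647 genes tested, 5926 (40.5%) were higher in IMP1 IP and 6926 (47.3%) lower at an adjusted p under 0.05, of which 4146 (28.3% of those tested) rose and 5128 (35%) fell by 2-fold or more. The median absolute log2 difference was 1.26 between IMP1 IP and WT and 0.17 between the WT libraries, and for 13345 genes (91.1%) the difference from WT was the larger. All 3 IP libraries lay above both WT libraries for 6073 genes (41.5%) and below both for 7318 (50%). The split depends on the scaling: the median log2 fold change of all genes was -0.17 as reported, -0.46 with upper quartile scaling (5173 higher, 7745 lower) and -0.58 with total count scaling (4837 higher, 8114 lower). Of the 8800 genes with at least 10 scaled CPM in both WT libraries, 266 were under 0.5 in all 3 IMP1 IP libraries, and 221 of these were under 0.5 in all 9 pull-down libraries. In the other direction, 31 of 8062 genes with at least 10 in every IMP1 IP library were under 0.5 in both WT libraries, and 13 of them were at 10 or more in all 9 pull-downs.

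**Figure D2:**
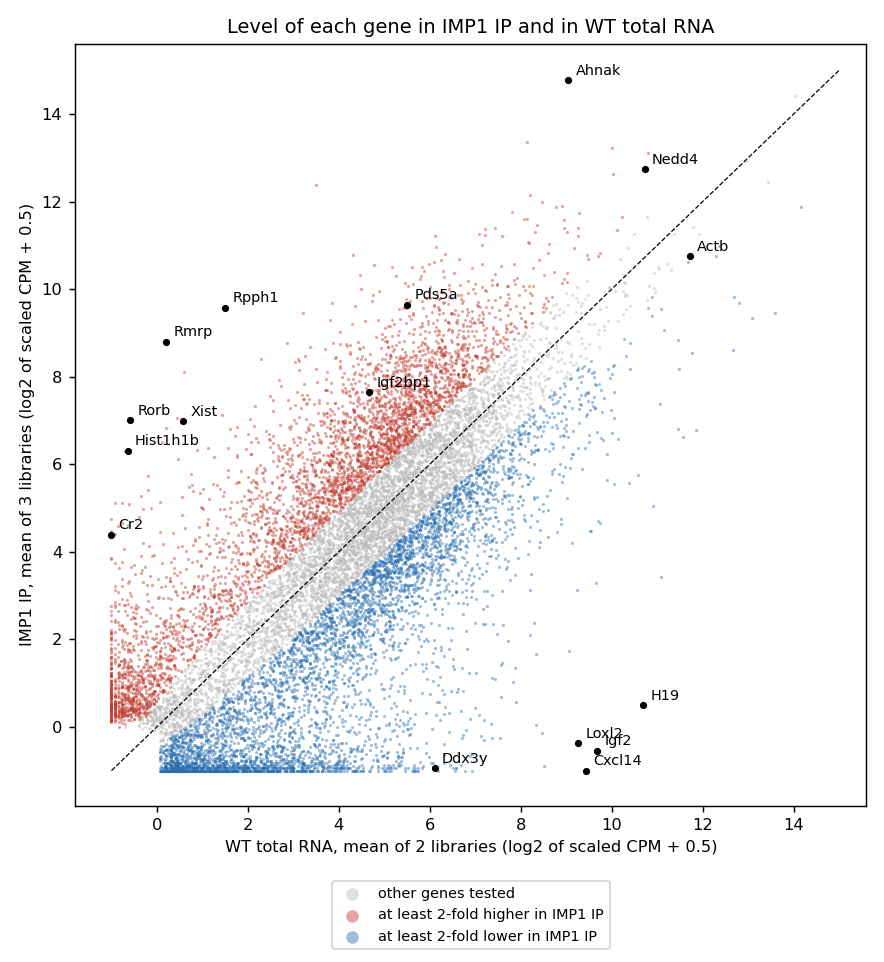
Mean level of each of the 14647 tested genes in WT total RNA (x axis) and in IMP1 IP (y axis), both as log2 of scaled CPM + 0.5; red and blue points are genes at least 2-fold higher or lower with an adjusted p under 0.05, black points are named genes, and the dashed line marks equal levels. The cloud is wide on both sides of the line, with a row of genes along the bottom that are abundant in WT and near 0 in IMP1 IP.

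The IMP family was examined first, since the mRNA of Igf2bp1 encodes the protein that was pulled down. Igf2bp1 (ENSMUSG00000013415; GRCm38.p6, chromosome 11, 95957163 to 96005944) was at 28.9 and 21.5 scaled CPM in WT and at 197, 203 and 198 in IMP1 IP, all 3 IP libraries far above both WT libraries. The log2 fold change was 3.04 (SE 0.11, adjusted p = 9.39e-09), or 8.22-fold. It stood at 155 to 158 in IgG IP and 112 to 123 in IMP2 IP, so most of that difference from WT was also seen with IgG: the direct difference from IgG IP was 0.31 (SE 0.037, adjusted p = 2.12e-07). Igf2bp2, the mRNA of IMP2, was lower in IMP1 IP (56.2, 58.9 and 66.7) than in WT (151 and 134; log2 fold change -1.18, adjusted p = 1.01e-06) and than in IgG IP (-0.67, adjusted p = 9.02e-10). Igf2bp3, the mRNA of the remaining family member, was lower than WT (14.1 to 16.0 against 27.7 and 26.4; -0.82, adjusted p = 2.65e-05) and did not pass the test against IgG (-0.04, adjusted p = 0.719).

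Of 17 tested transcripts reported as IMP1 ligands in other systems, 8 were higher than WT and 8 lower, close to the shares over all genes (40.5% and 47.3%). The median log2 fold change was -0.06, against -0.17 for all genes. Against IgG IP 8 of 19 were higher and 6 lower (31.7% and 31.9% over all genes), with none at least 2-fold higher. Their median against IgG was 0.10, from -0.07 to 0.22 over the alternatives. Those higher than WT were led by Cyld, a deubiquitinase that restrains NF-kappaB signalling, at 43.2 and 42.4 in WT and 442 to 452 in IMP1 IP (log2 fold change 3.44, adjusted p = 2.95e-10). Cyld stood at 310 to 318 in IgG IP, and its difference from IgG was 0.47 (adjusted p = 2.7e-11). Gli1, a transcription factor of hedgehog signalling, was higher by 2.54 but at no more than 1.67 scaled CPM in any IMP1 IP library. It did not pass the test against IgG (0.36, adjusted p = 0.269). Fmr1 (1.40), which encodes the RNA-binding protein FMRP, Lamb2 (1.35), a laminin chain, and Ctnnb1 (1.2), beta-catenin, were also higher. Ctnnb1 stood at 502 and 538 in WT, at 1146 to 1160 in IMP1 IP and at 696 to 715 in IgG IP, and its difference from IgG was 0.66 (adjusted p = 3.22e-14). The hyaluronan receptor Cd44 (0.41) and the ubiquitin ligase adaptor Btrc (0.25) were called higher only narrowly. The call for Cd44 was lost without IMP1 IP replicate 1 or 3 (adjusted p = 0.0511 and 0.0558) and that for Btrc without IMP1 IP replicate 1 or 2 or WT replicate 1 (0.09, 0.0636 and 0.0567), and both signs turned with total count scaling (Cd44 -0.00263, Btrc -0.17).

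Igf2, which gave the family its name, and H19, both imprinted genes, were nearly missing from the pull-down. H19, a non-coding RNA on chromosome 7, was at 1435 and 1911 scaled CPM in WT and at 0.742, 1.12 and 0.898 in IMP1 IP, where it fell by 10.77 on the log2 scale (SE 0.18, adjusted p = 2.72e-10). Its neighbour Igf2, the growth factor gene, was at 1467 and 460 in WT and at 0.309, 0.132 and 0.128 in IMP1 IP (-12.19, SE 0.72, adjusted p = 2.3e-07; -11.1 without WT replicate 1 and -12.8 without WT replicate 2). In the other pull-downs H19 was at 0.797 to 2.4 and Igf2 at 0.219 to 0.966, so these RNAs were near 0 in all 9. The immediate-early gene Egr1 (-2.77), the chromatin proteins Hmga1 (-1.81; -1.17 without WT replicate 1) and Hmga2 (-0.55), the prostaglandin synthase Ptgs2 (-1) and beta-actin (Actb, -0.93) were also lower. Hmga2 was at 459 and 222 in WT and 219 to 232 in IMP1 IP, overlapping the second WT library, and its call was lost without WT replicate 1 (0.06, adjusted p = 0.179) and without any 1 of the IMP1 IP libraries (-0.53 to -0.58, adjusted p = 0.1 to 0.129). Actb was at 3914 and 2909 in WT, 1721 to 1736 in IMP1 IP and 1931 to 1983 in IgG IP. Eef2 did not pass (-0.06, adjusted p = 0.348; -0.35 and called with upper quartile scaling), and Lin28b, Mapk4 and Mapt were too low to test, at no more than 0.928 in any of the 5 libraries.

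The 10 named genes with the largest positive fold changes were structured non-coding RNAs, histone mRNAs and other mRNAs, each at 2.61 scaled CPM or less in both WT libraries. Rmrp, the RNA of ribonuclease MRP, was at 0.669 and 0.638 scaled CPM in WT and at 491, 424 and 424 in IMP1 IP, an increase of 9.45 on the log2 scale (SE 0.14, adjusted p = 2.24e-10). Rpph1, the RNA of ribonuclease P, was at 2.07 and 2.61 against 885, 740 and 679 (8.40), and Scarna2, which guides RNA modification in Cajal bodies, at 0.0608 and 0 against 23.4, 21 and 18.4 (9.23; 11.4 without WT replicate 1, where WT is at 0, and 8.29 without WT replicate 2). Among protein-coding genes, Rorb, a nuclear receptor gene, was at 0.122 and 0.213 in WT and at 126, 127 and 133 in IMP1 IP (9.55). Arfgef3 was at 0 and 0.0532 against 33.3 to 35 (9.93; 9.17 without WT replicate 1 and 12.1 without WT replicate 2, where WT is at 0), and Lonrf3 at 0.0608 and 0.106 against 32.2 to 36.0 (8.58). Cr2, the complement receptor CD21, had no count in WT and 19.5 to 22.1 scaled CPM in IMP1 IP, at least 120-fold higher. These protein-coding genes were also high in IgG IP: Rorb was at 157 to 166, Arfgef3 at 24.3 to 27, Lonrf3 at 27.3 to 27.9 and Cr2 at 12.2 to 14.3. So were the structured RNAs Rmrp (467 to 506), Rpph1 (640 to 677) and Scarna2 (65 to 74.4).

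The 10 named genes with the largest negative fold changes were at 29.3 scaled CPM or more in both WT libraries and at 0.309 or less in every IMP1 IP library. Cxcl14, a secreted chemokine, was at 518 and 912 scaled CPM in WT and had no count in any IMP1 IP library, at least 3731-fold lower. Eln, elastin, was at 122 and 70.7 in WT (at least 504-fold lower), Cthrc1, a collagen triple helix protein, at 101 and 146 (at least 643.2-fold), and Lum at 38.1 and 72.9 (at least 289.4-fold; 198.5-fold without WT replicate 2), each with no count in IMP1 IP. Igfbp2, a secreted binding protein of insulin-like growth factors, was at 343 and 385 in WT and at 0, 0 and 0.128 in IMP1 IP. Gjb2, a gap junction protein, was at 189 and 63.3 (at least 656.8-fold lower; 330.2-fold without WT replicate 1), Tnmd, tenomodulin of tendon, at 42.6 and 58.8 (at least 264.4-fold), and Ptgis, prostacyclin synthase, at 47.5 and 52.3 (at least 260.3-fold). The intronless aldolase copy Aldoart1 (33.2 and 29.3 in WT, at least 163-fold lower) shares sequence with its parent gene and is uncertain, and Igf2 completes the 10. None of these 10 exceeded 0.97 scaled CPM in any of the 9 pull-down libraries.

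Genes of very large proteins were higher almost throughout. Of 40 giant scaffold, linker and dynein genes, 39 were higher in IMP1 IP than in WT and 1 lower. Their median log2 fold change was 3.83, against -0.17 for all genes. Ahnak, a giant scaffold under the plasma membrane, was at 534 and 522 scaled CPM in WT and at 29160, 27860 and 26830 in IMP1 IP, 54.8-fold higher (log2 fold change 5.78, SE 0.10, adjusted p = 2.93e-10). Atm, the kinase of the DNA damage response, was at 8.15 and 9.47 against 683 to 717 (6.35), and Syne2, a linker of nucleus and cytoskeleton, at 6.87 and 6.54 against 424 to 443 (6.08). Dystrophin (Dmd) was the exception, at 36.4 and 40.9 in WT and 0.309 to 0.460 in IMP1 IP (-6.66), and at no more than 0.514 in any other pull-down. Against IgG IP, 36 of 39 tested members were higher (31.7% of all 14076 genes tested were) and none lower (31.9%), with a median of 0.40, and Ahnak stood at 20100 to 20740 in IgG IP. Against IMP2 IP all 39 were higher (34.1% of all genes were higher and 37.3% lower), with a median of 1.58.

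Cell cycle and replication genes were also higher, 38 of 44 with 4 lower and a median of 2.17. Top2a, the topoisomerase that untangles replicated DNA, was at 73.9 and 65.6 in WT and at 1996, 1989 and 1998 in IMP1 IP (log2 fold change 4.89, SE 0.08, adjusted p = 2.73e-10). Pole, the catalytic subunit of DNA polymerase epsilon, was at 10.7 and 9.1 against 404 to 415 (5.43), and Ect2, an exchange factor needed for cytokinesis, at 21 and 17 against 582 to 601 (5.01). The cyclin genes Ccnd3 (-1.85), Ccne1 and Ccnd2 were among the lower members. In IgG IP Top2a was at 994 to 1018, and 30 of 44 genes were higher in IMP1 IP than in IgG IP and 5 lower, with a median of 0.29. Against IMP2 IP 21 of 44 were higher and 19 lower, with a median of -0.01.

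Replication-dependent histone mRNAs, which end in a stem-loop in place of a poly(A) tail, were higher for 39 of 43 tested and lower for 4. Their median log2 fold change was 5.24, or 4.76 with members at 0 in WT set to their bound. Members at or near 0 in WT passed the expression filter only through IMP1 IP, so their direction was fixed by the filter. Hist1h1a, Hist1h1b and Hist1h1e encode linker histones, which bind the nucleosome where DNA enters and leaves. Hist1h1a was at 0.122 and 0.106 scaled CPM in WT and at 88.3, 73 and 73 in IMP1 IP (9.38), Hist1h1b at 0.122 and 0.16 against 75.8 to 81.3 (9.09), and Hist1h1e at 0.730 and 0.585 against 108 to 118 (7.47). Hist1h2bk had no count in WT and was at least 82.6-fold higher. The lower members included Hist1h2bc, at 90.4 and 99.8 in WT and 7.76 to 8.72 in IMP1 IP (-3.50). Against IgG IP 15 of 44 were higher (31.7% over all genes) and 9 lower (31.9%), with a median of 0.12. Against IMP2 IP 39 of 44 were higher (34.1%) and 1 lower (37.3%). Histone genes are close copies of each other, so their counts are uncertain, and the sources used here do not state whether poly(A) RNA was selected.

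These 3 linker histone genes lie on chromosome 13. They were taken from the genes named for high fold changes, so their shared rise follows from the choice. The 130 bases before each RefSeq start (GRCm38.p6) are shown, 5′ to 3′ on the gene's strand. Matches on either strand to AAACACA (the H1 box), CCAAT and TATAAA are in capitals. The windows are Hist1h1a at chr13:23763538-23763667 (plus strand), Hist1h1b at chr13:21780626-21780755 (minus) and Hist1h1e at chr13:23622559-23622688 (minus).
Hist1h1a: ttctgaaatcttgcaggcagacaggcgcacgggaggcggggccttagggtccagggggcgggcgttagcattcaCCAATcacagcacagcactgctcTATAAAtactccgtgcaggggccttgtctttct
Hist1h1b: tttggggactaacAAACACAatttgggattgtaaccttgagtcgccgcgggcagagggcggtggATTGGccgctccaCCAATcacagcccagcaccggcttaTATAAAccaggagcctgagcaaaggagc
Hist1h1e: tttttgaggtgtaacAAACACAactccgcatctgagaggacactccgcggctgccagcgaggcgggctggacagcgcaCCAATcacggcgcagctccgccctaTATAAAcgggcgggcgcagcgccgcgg
Hist1h1b and Hist1h1e held all 3 motifs, and Hist1h1a held CCAAT and TATAAA. Over the same window of 32851 RefSeq promoters, 2.98% held AAACACA, 22.4% CCAAT, 6.83% TATAAA and 0.113% all 3. A match describes the letters in this window, and the counts do not bear on promoter use.

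Short structured non-coding RNAs, transcribed for RNA processing and modification, were higher for all 9 tested. Their median was 8.12, or 5.49 with members at 0 in WT at their bound. The 16 members found in the files summed to only 4.135 and 4.84 scaled CPM in WT. Members near 0 in WT passed the expression filter only through IMP1 IP, so their direction was fixed by the filter. Whether poly(A) RNA was selected is not stated in the sources used here, for total RNA or for pull-downs. A difference in RNA selection could not be told apart from the pull-down against WT and was not tested. Rn7sk, the RNA that holds the elongation factor P-TEFb inactive, was at 0.912 and 1.12 in WT and at 292, 276 and 259 in IMP1 IP (8.12, adjusted p = 2.08e-10). By RefSeq class, 36 of 39 small nucleolar RNAs tested and 12 of 12 small nuclear RNAs were higher than WT. In these classes too, any member near 0 in WT entered the test only through IMP1 IP. Against IgG IP, none of 11 structured RNAs in the list was higher (31.7% of all genes) and 7 were lower (31.9%), with a median of -0.68. The RefSeq classes differed there. Small nuclear RNAs were higher than IgG for 8 of 16, 6 of them at least 2-fold, and lower for 5 (median 0.21). Small nucleolar RNAs were higher than IgG for 3 of 60 and lower for 34 (median -0.88).

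Nearly all regulators of histone methylation were higher. Of 33 histone lysine methyltransferases and demethylases, 32 were higher and 1 lower, with a median of 1.96. Kmt2d, a methyltransferase of enhancers, was at 27.6 and 30.4 in WT and 974 to 1022 in IMP1 IP (5.15), and Kmt2a rose by 4.29, while Kdm5b was lower by 0.23, a call lost without IMP1 IP replicate 2 or 3. Against IgG IP 20 of these 33 genes were higher and 5 lower (median 0.18), and Kmt2d was among the lower ones, with 1220 to 1235 in IgG IP. In IGF and insulin signalling 20 of 34 genes were higher and 13 lower, with a median of 1.34, and against IgG IP 19 of 33 were higher and 3 lower (median 0.17). The receptor adaptors Irs2 (5.21) and Irs1 (4.07) and the growth inhibitor Tsc1 (3.18) were highest, and Igf2, Igfbp2 and Igfbp5 (-6.86) were lowest. Irs1 was at 13 and 12.7 in WT and 204 to 214 in IMP1 IP.

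Partners that share ribonucleoprotein granules with the IMPs included 22 of 28 genes that were higher than WT (40.5% of all genes) and 4 that were lower (47.3%; median 0.94). Against IgG IP 14 were higher and 10 lower (median 0.08). Ago2, the small-RNA slicer, was at 124 and 130 in WT and 954 to 973 in IMP1 IP (2.97), and Purb (2.52) and Khsrp (2.37) followed, both nucleic acid-binding proteins. Ybx1, the Y-box protein of mRNA packaging, was lower (82.9 to 89.2 against 367 and 275; -1.85). Cytosolic aminoacyl-tRNA synthetases numbered 14 higher than WT (40.5% of all genes) and 5 lower (47.3%) among 22 (median 0.93). Aars, the alanine enzyme, was at 253 and 282 in WT and 3102 to 3154 in IMP1 IP (3.60). Against IgG IP 19 of 22 synthetases were higher and none lower, with a median of 0.47 and Aars at 1943 to 1998. Against IMP2 IP 10 of 22 were higher and 9 lower (median 0.02).

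Genes of energy metabolism and ribosomes were mostly lower. Of 75 nuclear-encoded genes of oxidative phosphorylation, 68 were lower in IMP1 IP than in WT and 3 higher, with a median log2 fold change of -2.14. The complex I subunit Ndufa1 was at 44.7 and 44.5 in WT and at 3.59, 2.96 and 4.17 in IMP1 IP (-3.59, SE 0.12, adjusted p = 5.49e-09), and the ATP synthase subunit Atp5k at 25.6 or more against 2.6 or less (-3.73). The higher members were the subunits Ndufs1 (0.86), Ndufv1 (0.74) and Sdha (0.69), and Sdha stood at 182 and 192 in WT and 289 to 291 in IMP1 IP. Against IgG IP 13 of 74 were higher (31.7% of all genes) and 27 lower (31.9%), with a median of -0.15. Mitochondrial ribosomal proteins were lower for 65 of 76 and higher for 4 (median -1.24), among the latter Mrps30 (0.39; -0.03 with total count scaling). Mrpl54 was at 57.2 and 50.2 in WT and 3.15 to 3.79 in IMP1 IP. Cytosolic ribosomal proteins were lower for 61 of 80 and higher for 11 (median -1.42), and proteasome subunits lower for 25 of 31 and higher for 2 (median -0.94). Against IgG IP the mitochondrial ribosomal list had 9 higher (31.7% of all genes) and 21 lower (31.9%) of 74 (median -0.09), so its lower calls were near the share over all genes. The cytosolic list had 5 higher and 43 lower of 80 (median -0.33). The proteasome list turned its sign there, with 20 of 31 higher than IgG and 4 lower (median 0.27). Against IMP2 IP 4 of these 31 proteasome genes were higher and 22 lower (median -0.51). Of 806 pseudogenes tested, 783 were lower in IMP1 IP and 13 higher. Only 185 pseudogenes passed the filter among the 9 pull-down libraries. For many of the 806 the lower level therefore follows from the filter, which they passed through WT. Ribosomal protein genes have many processed copies, and the parent genes share reads with them. Rps16 (52.5 and 39.5 in WT, 0.513 to 0.657 in IMP1 IP) and Gapdh, the glycolytic enzyme with 3.04 and 3.24 in WT and 17.5 to 18.4 in IMP1 IP, are therefore uncertain.

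Most actin cytoskeleton genes were lower, smooth muscle proteins among them. Of 38 genes 29 were lower and 9 higher, with a median of -1.73. Tagln, the smooth muscle protein transgelin, was at 4507 and 3053 scaled CPM in WT and at 113, 110 and 104 in IMP1 IP (-5.07, SE 0.15, adjusted p = 2.64e-09), and Cnn1, calponin, at 565 and 502 against 2.72 to 2.95 (-7.51). Actg2, smooth muscle gamma-actin, was at 402 and 308 against 0.263 to 0.619 (-9.63). The higher members were led by Flnc, the crosslinker filamin C (3.57), Myh9, the heavy chain of non-muscle myosin (3.25), and Tln1, talin, which ties integrins to actin (2.67). Myh9 was at 930 and 1142 in WT and at 9646, 9524 and 9389 in IMP1 IP, with 6505 to 6595 in IgG IP. Against IgG IP 14 of 38 were higher (31.7% of all genes) and 9 lower (31.9%), with a median of 0.03, among the higher ones Tagln, by 0.22.

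Matrix and secretory mRNAs, like those of the proteasome, gave opposite signs against the 2 references. Of 22 collagen genes, 15 were lower than WT and 4 higher, with a median of -0.72, while against IgG IP 18 of 21 were higher and 1 lower, with a median of 0.57. Col3a1, a fibrillar collagen, was at 2288 and 4039 in WT, at 107, 94.9 and 93.7 in IMP1 IP, and at 58.2 to 62 in IgG IP. Its log2 fold change was -4.96 against WT (adjusted p = 2.48e-08) and 0.67 against IgG (adjusted p = 9.26e-08), and all groups were apart. Col6a3, a large chain of collagen VI, was higher against both, at 397 and 620 in WT, 2647 to 2741 in IMP1 IP and 1764 to 1768 in IgG IP. Col6a1 (0.33) and Col16a1 (0.25, a call lost without IMP1 IP replicate 1) were called higher than WT but turned to -0.08 and -0.16 with total count scaling. Matrix glycoproteins and proteoglycans were lower than WT for 27 of 39 and higher for 10 (median -1.08), yet higher than IgG for 31 of 34 and lower for 1 (median 0.55). Against IMP2 IP all 21 collagen genes tested were higher (median 1.13). Of the 34 matrix glycoproteins and proteoglycans, 24 were higher than IMP2 IP and 7 lower (median 0.69). The long basement membrane proteoglycan Hspg2, perlecan, was at 1569 and 1773 in WT, 6816 to 6916 in IMP1 IP and 5008 to 5179 in IgG IP. Loxl2, a crosslinking oxidase, was at 616 and 613 in WT and 0.128 to 0.371 in IMP1 IP, and at no more than 0.656 in any other pull-down.

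Genes of the secretory pathway also differed in sign between the references. Genes of endoplasmic reticulum translocation, glycosylation and folding were lower than WT for 31 of 42 and higher for 10 (median -0.68), but higher than IgG for 32 of 42 and lower for 6 (median 0.36). Against IMP2 IP 13 of these 42 were higher and 24 lower (median -0.23). Uggt1, which senses misfolded glycoproteins, was higher against both (2.33 and 0.95), at 178 and 197 in WT, 895 to 915 in IMP1 IP and 444 to 463 in IgG IP. The small subunits Ost4 (-3.57) and Ssr4 (-3.51) of the glycosylation and translocation complexes were lower against WT and lower than IgG (-0.69 and -0.53). Selenoproteins were lower than WT for 14 of 21 and higher for 6 (median -0.70), and higher than IgG for 15 of 18 with none lower (median 0.55). Of those 18, 8 were higher than IMP2 IP and 8 lower (median -0.03). Of 32 integrins and adhesion receptors, 14 were higher than WT and 17 lower, near the shares over all genes (40.5% and 47.3%). They were higher than IgG for 19 of 31 and lower for 3, and higher than IMP2 for 18 and lower for 7. Lysosomal genes were also near those shares (15 higher, 14 lower than WT of 34), with a median of 0.02, and as low as -0.39 over the alternatives. Of these 34, 26 were higher than IgG and 3 lower, while 5 were higher than IMP2 and 24 lower (median -0.33).

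**Figure D3:**
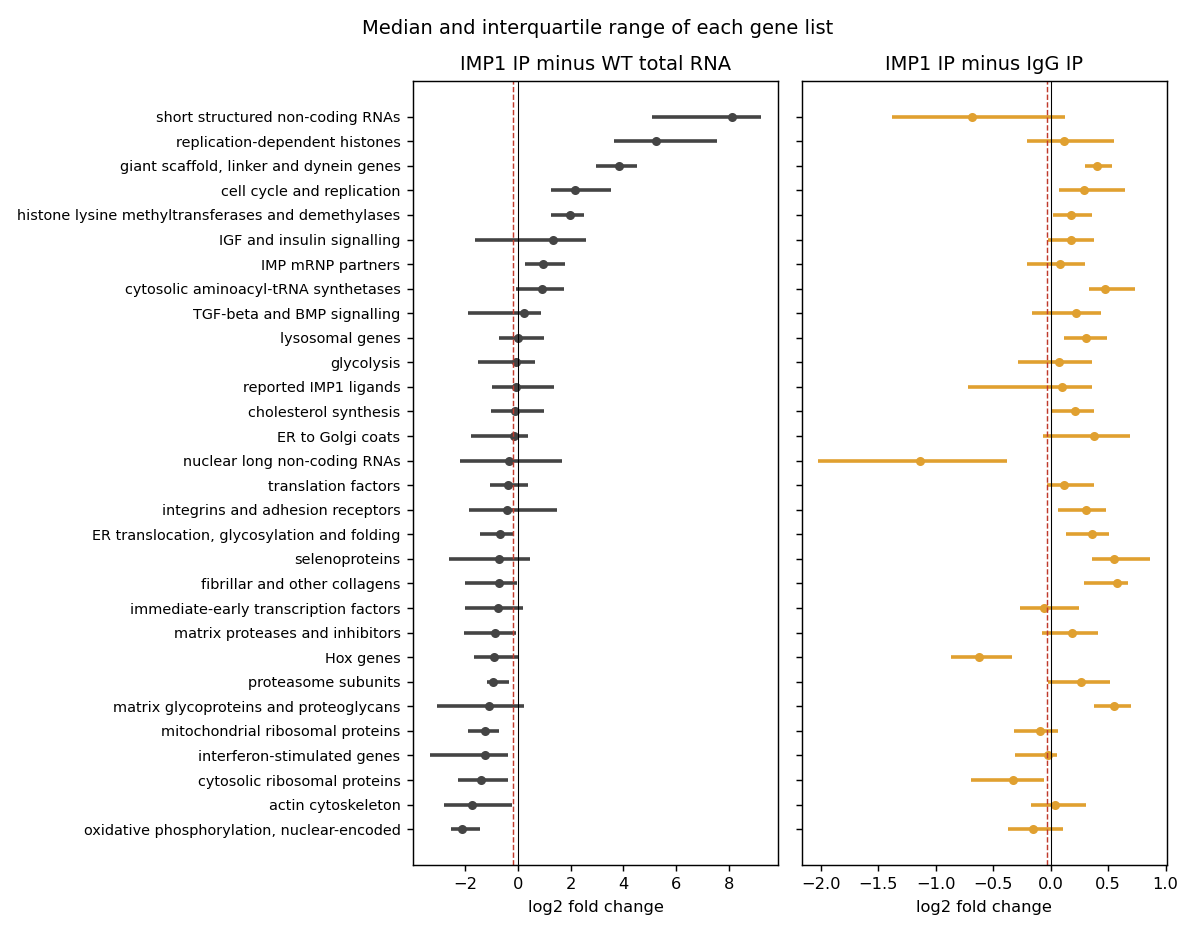
Median (point) and interquartile range (line) of the log2 fold change in 30 gene lists (cell type markers, sex-linked genes and the IMP family are not drawn), for IMP1 IP minus WT total RNA (left) and IMP1 IP minus IgG IP (right, narrower scale); the solid line marks 0 and the dashed line the median of all genes tested. The medians drawn span from -2.14 to 8.12 against WT and from -1.13 to 0.57 against IgG, and collagens, matrix glycoproteins and selenoproteins lie left of 0 in the first panel and right of it in the second.

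In the remaining lists, those mostly lower than WT were Hox genes (22 of 35, with 7 higher; median -0.90; 21 of 33 also lower than IgG), interferon-stimulated genes (15 of 21, with 4 higher; -1.26), immediate-early transcription factors (14 of 23, with 6 higher; -0.74), matrix proteases and inhibitors (16 of 26, with 5 higher; -0.86) and translation factors (23 of 37, with 11 higher; -0.39). Ccn2, a matrix signalling protein, was at 3239 and 2448 in WT and 107 to 116 in IMP1 IP, and the protease inhibitor Serpine2 at 835 and 887 against 23.8 to 25.3. The others, to be read beside the 40.5% higher and 47.3% lower of all genes, were TGF-beta and BMP signalling (18 higher, 15 lower of 35; median 0.25, from -0.16 to 0.32 over the alternatives), cholesterol synthesis (10 and 11 of 25; -0.12), glycolysis (9 and 10 of 20; -0.06, from -0.47 to 0.07) and coats of transport from the endoplasmic reticulum to the Golgi (9 and 13 of 26, of which 1 and 9 passed 2-fold; -0.14).

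The direct comparison with IgG IP tested which differences from WT were larger with the IMP1 antibody. Of 4441 genes called higher than WT with no overlap and an average log2 CPM of 3 or more, 2958 were also higher in IMP1 IP than in IgG IP (31.7% of all genes tested were) and 547 lower (31.9%). The same IMP1 IP libraries were used to choose these genes and to compare them with IgG, so this split partly follows from the choice. These counts follow the scaling: 4457 genes were higher and 4491 lower than IgG in all, but 2952 and 6391 with upper quartile scaling and 3086 and 6172 with total count scaling, and against IMP2 4800 and 5253, but 2908 and 7544 with total count scaling. Rises over IgG were mostly under 2-fold (82 genes, 0.583%, passed that fold; 29 with upper quartile scaling), and 57 genes passed 2-fold against both WT and IgG. Nedd4, which encodes a ubiquitin ligase for membrane proteins, led them at 1519 and 1894 scaled CPM in WT, 6929, 6823 and 6782 in IMP1 IP, 2189 to 2257 in IgG IP and 2171 to 2275 in IMP2 IP. Its log2 fold change was 2.06 against WT (SE 0.10, adjusted p = 6.97e-08) and 1.58 against IgG (SE 0.03, adjusted p = 6.53e-21), and the IMP1 libraries stood apart from all 8 others.

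The other 9 genes named by the same rule lay 1.58 to 7.47 above WT. Pds5a, a cohesin regulator, was at 46 and 43.4 in WT, 790 to 809 in IMP1 IP and 326 to 338 in IgG IP (4.21 against WT, 1.23 against IgG). Npat, the activator of histone gene transcription in S phase, was at 20.7 and 23.2, 339 to 342 and 144 to 152 (4 and 1.15), and Hist1h1e, whose upstream sequence is given above, was 7.47 above WT and 1.16 above IgG. Npat and Atm are neighbours on chromosome 9 (53536889 to 53575627 and 53437122 to 53536828). Gapvd1, an endocytic exchange factor (3.21 and 1.14), the lipid transporter gene Abca5 (3.51 and 1.19) and Smpdl3b, a membrane phosphodiesterase (3.16 and 1.18), followed. Prkaa1, a catalytic subunit of the energy sensor AMPK (1.92 and 1.17), Edem3, which trims glycoproteins for degradation (1.87 and 1.14), and Txnrd3, a selenium-containing reductase (1.58 and 1.18), were closer to WT. All 10 were also higher in IMP1 IP than in IMP2 IP (34.1% of all genes were), by 0.40 (Smpdl3b) to 2.25 (Hist1h1e). They were chosen for high levels in the same IMP1 IP libraries, so this is not a separate test.

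**Figure D4:**
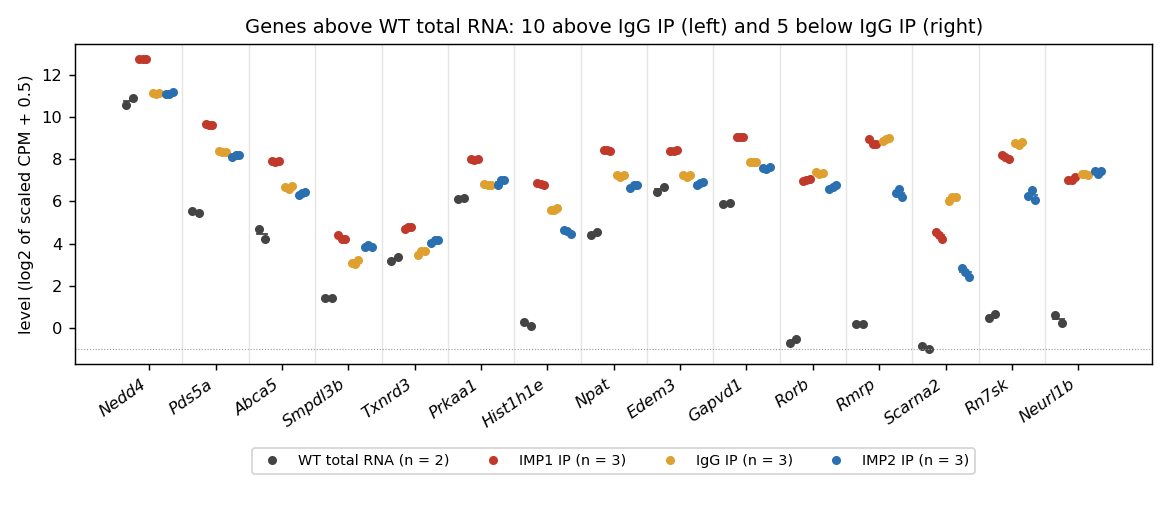
Level of 15 genes in each of 11 libraries, as log2 of scaled CPM + 0.5; points are libraries, short lines are group means, and the dotted line marks 0 counts. The 10 genes on the left have IMP1 IP above every other group, and the 5 on the right lie above WT in all pull-downs, with the mean of IgG IP above that of IMP1 IP.

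Some of the largest rises over WT were larger with IgG. Rn7sk was at 412 to 445 in IgG IP, and its difference of IMP1 IP from IgG IP was -0.68 (adjusted p = 1.65e-08). Scarna2 was at 65 to 74.4 in IgG IP (-1.81, adjusted p = 4.81e-14), Rorb at 157 to 166 (-0.38) and Neurl1b, a ubiquitin ligase gene at 1.03 and 0.691 in WT and 128 to 140 in IMP1 IP, at 153 to 158 (-0.28). Rmrp was at 467 to 506 in IgG IP, and its difference of -0.18 (adjusted p = 0.019) was lost when either IMP1 IP replicate 2 or 3 or IgG IP replicate 2 or 3 was left out (adjusted p = 0.0756 to 0.126). Nuclear long non-coding RNAs were also mostly below IgG: of 19 tested against each reference, 7 were higher and 10 lower than WT, and 1 was higher and 15 lower than IgG (median -1.13). Malat1, an abundant RNA of nuclear speckles, was at 71.3 and 78.7 in WT, 1598 to 1633 in IMP1 IP and 6288 to 6479 in IgG IP. Kcnq1ot1, an imprinting RNA, was at 0.973 and 0.638, 10.4 to 11.3 and 118 to 124. Meg3, from an imprinted cluster on chromosome 12, was at 64.6 and 81.4 in WT, 6.68 to 8.21 in IMP1 IP and 30.8 to 31.8 in IgG IP. Records outside annotated genes, which were 24.16% to 25.15% of those of IgG IP, 7.431% to 7.665% of IMP1 IP and 4.429% and 4.71% of WT, were likewise highest in IgG IP, and their part in these levels was not tested.

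Gene length was described by the genomic span in RefSeq, since transcript lengths were not used here. Protein-coding genes were divided into 5 groups of equal size, with median spans of 4.66, 12.9, 24.8, 48.8 and 132 kb. The median log2 fold change against WT climbed from -1.05 in the shortest group to -0.42, -0.07, 0.58 and 0.84 in the longest. In the shortest group 515 of 2557 genes were higher and 1716 lower, and in the longest 1531 of 2557 were higher and 748 lower. Genes of the longest group took 16% and 16.8% of protein-coding counts in WT, 34.4% to 34.6% in IMP1 IP, 33% to 33.2% in IgG IP and 24.2% to 24.8% in IMP2 IP. The shortest group took 19.8% and 18.6% in WT and 6.72% to 6.87% in IMP1 IP. Against IgG IP the medians ran from -0.13 to 0.18, and against IMP2 IP from -0.48 to 0.39. Span moves with the lists above, since giant scaffold genes are long and most ribosomal and mitochondrial protein genes short, and its part in the list medians was not tested. Histone genes, which are short, were higher than WT for 39 of 43.

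**Figure D5:**
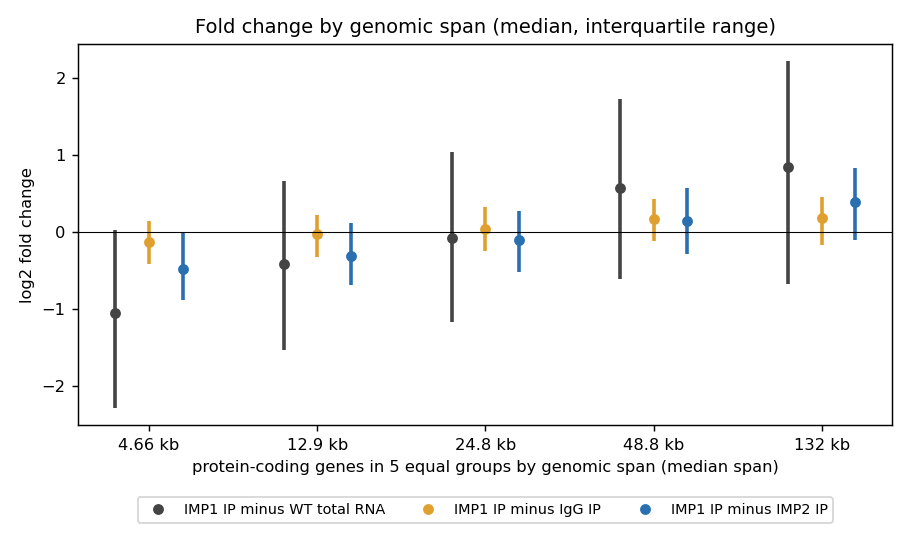
Median (point) and interquartile range (line) of the log2 fold change of IMP1 IP against each of 3 references, for protein-coding genes in 5 equal groups by genomic span, labelled by their median span. The medians climb from -1.05 to 0.84 against WT total RNA and from -0.13 to 0.18 against IgG IP.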

How the data were processed

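Each deposited file holds raw read counts per Ensembl gene as whole numbers. STAR and HTSeq with mm10 are named in the submitters' processing notes, and the labels' protocols name a QIAGEN kit for RNA and Illumina TruSeq for libraries. Their versions and settings, and the strand use, are not given in the sources used here. Overlapping and antisense genes could not be separated. The 5 tally lines of each file were set apart from the 43629 genes, of which 42462 had a symbol, and 33280 matched RefSeq (GRCm38.p6), the source of classes and coordinates.

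The 5 libraries were fitted in R 4.3.3 with edgeR 4.0.16 (TMM scaling, default expression filter, quasi-likelihood test, 2-sided, Benjamini-Hochberg adjustment, threshold 0.05). The same test on all 9 IP libraries gave the contrasts with IgG and IMP2. The fitted biological coefficient of variation of the 5 libraries was 7.421%. Depth, as counts in genes, was 11840189 to 21756430 per library over the 11 libraries, and a floor of 3 counts was 0.127 to 0.257 scaled CPM. Replicates differed beyond counting noise (chi-square per degree of freedom of at least 1.143), so none was counted as a duplicate. The steps were run on simulated data in which 13903 of 14103 genes were left unchanged. There edgeR called 16% of genes changed 1.25-fold in the right direction, 56% at 1.5-fold, 86% at 2-fold and 98% at 4-fold. It also called 26 of the unchanged genes. Most genes differed in the real comparison, so the simulation does not test the scaling under that condition.

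Genes were named by rule: the IMP family, reported ligands and sex-linked genes; the 10 highest and 10 lowest fold changes among called genes without overlap whose average log2 CPM was 3 or more; the 10 with the highest smaller fold change against WT and IgG; the 5 highest against WT that were below IgG; and up to 3 leaders at each end of a list. Predicted genes and pseudogenes were passed over. The 40 lists hold 1148 matched entries from general knowledge. The comparison, its members and the lists were chosen with earlier results of these data known, so they are described by counts and medians with no list test. Some list members are counted but not reported by name here.

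Alternatives were DESeq2 1.42.0 (size factors, Wald test), limma 3.58.1 voom, upper quartile and total count scaling, TMM on protein-coding genes, no filter, a filter of 10 CPM in 2 libraries, other sets of libraries in the fit, a block for the replicate number, and leaving out each library in turn.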

Additional observations from a re-analysis of the deposited data

Results flagged for a closer look

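Records outside annotated genes, which enter none of the comparisons, made up 7.56% ± 0.118 (SD, n = 3) of the records in IMP1 IP, above both WT total RNA libraries (4.429% and 4.71%). The share was 24.6% ± 0.503 (SD, n = 3) in IgG IP and 5.04% ± 0.296 (SD, n = 3) in IMP2 IP. Which positions these records came from was not analysed here.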

How the results depend on the processing

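Counts of genes higher and lower than WT stayed within 1.5 times of the reported ones under every alternative, and the count at least 2-fold lower fell to 3118 of 9825 genes with a filter of 10 CPM. Leaving out 1 library gave 5643 to 6199 higher, 6631 to 7082 lower, 4034 to 4320 at least 2-fold higher and 5011 to 5180 at least 2-fold lower; without a WT library, the lone one is assumed to vary like the IP libraries. Against IgG, the count higher was 2952 with upper quartile scaling (4457 as reported), and the count at least 2-fold higher (82) was 29 with upper quartile scaling, 32 with total count scaling, 137 with no filter and 22 with the 10 CPM filter. The count at least 2-fold lower (1740) was 3035 with no filter and 195 with the 10 CPM filter, which test more and fewer genes. Without 1 library these were 4194 to 4276 higher, 4158 to 4347 lower, 77 to 91 and 1823 to 1932. Against IMP2, 2908 genes were higher with total count scaling (4800 as reported), and 4516 to 4746 were higher and 4926 to 5357 lower without 1 library. The causes were not tested where not stated.

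Signs turned for few named genes. Against WT these were Btrc (-0.0388 with upper quartile and -0.166 with total count scaling), Col16a1 (-0.0301 and -0.157), Cd44 (-0.00263 with total count scaling), Col6a1 (-0.0827) and Mrps30 (-0.0253), and without WT replicate 1 Hmga2 (0.0595; -0.999 without WT replicate 2) and Tek (-0.053; 1.88 without WT replicate 2). Against IgG they were Ptgs2 (-0.0708 with upper quartile scaling, -0.0536 with total count scaling, -0.0384 with the 10 CPM filter), Rpph1 (-0.00111 with upper quartile scaling) and Igf2bp3 (0.0186 with no filter, 0.0194 without IgG IP replicate 1, 0.00217 without IMP1 IP replicate 2, -0.0993 without IMP1 IP replicate 3), none past the threshold. List medians kept their sign under every alternative for 34 of 39 lists against WT and 28 of 40 against IgG.

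No paired analysis was possible for IMP1 IP against WT, because these groups share no replicate number in the labels. Among the pull-downs, same-numbered libraries did not deviate together (r of -0.00984 to 0.00489 with IgG and 0.0133 to 0.0733 with IMP2), so the numbers were not taken to pair them. With the replicate number as a block, 4492 genes were higher and 4523 lower than IgG (82 and 1743 at least 2-fold), and 4799 higher and 5268 lower than IMP2.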
